A study of Mus musculus with 9 samples.

Results

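The genes of the unfolded protein response and the integrated stress response were followed in a mouse colon carcinoma line and its liver-metastatic derivatives. The set was a named list of 40 genes, found by symbol among the 16399 genes of each expression table. It holds 5 stress sensors with Xbp1, 14 chaperones and folding enzymes of the endoplasmic reticulum (ER), 4 genes of ER-associated degradation (ERAD), 5 transcription factors of the integrated stress response (ISR) and 12 Atf4-type targets. All 40 reached 1 TPM in every library, so all were among the 11287 genes tested. MC38-P is the parental MC38 line, a colon carcinoma line of C57BL/6 mice, labelled with GFP and firefly luciferase. MC38-LM3a and MC38-LM3b each came from it by 3 rounds of injection into the spleen of immunocompetent mice and recovery of cells from liver metastases. All 3 groups carry the GFP and luciferase label. The libraries are from cells without an added stressor in the labels, with 3 replicates of each line, and poly(A) RNA was sequenced. Each derivative is a single cell population, described by the study as derived independently of the other, so that differences between lines cannot be told apart from chance divergence of those populations. The study's methods call the replicates biological without saying whether they were separate cultures, and the p-values measure the spread between these libraries, which may be technical.

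When unfolded proteins gather in the ER, the sensors Ern1 (IRE1), Atf6 and Eif2ak3 (PERK) are engaged. IRE1 splices Xbp1 mRNA, and spliced XBP1 and cleaved ATF6 induce chaperones and ERAD genes. PERK, like the amino acid sensor Eif2ak4 (GCN2), phosphorylates eIF2alpha, which lowers general translation, favours translation of ATF4 and through it induces genes of amino acid synthesis and transport. Expression values report mRNA levels, so splicing of Xbp1, translation of ATF4 and phosphorylation of the sensors were not measured here.

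Values are TPM, transcript levels scaled per transcript length and to a fixed library total, and fold changes are differences of log2(TPM + 1), which understate the change of low genes. A gene was called when limma gave an adjusted p under 0.05 over all genes tested. It was a DEG when its absolute log2 fold change was also above 1. The number of genes at 1 TPM or more was 10875 in the poorest library and 11218 in the richest, and log2 values of library pairs correlated at r = 0.969 to 0.997 across genes. The total read number is unknown, since the tables give TPM only. The median over all genes tested was -2e-04 for MC38-LM3a minus MC38-P, but 0.21 for MC38-LM3b minus MC38-P. Several counts and medians of MC38-LM3b are therefore also given with each library centred on its median. Values of single genes are as deposited unless a setting is named. Centring lowers those of MC38-LM3b, for instance from 0.52 to 0.30 for Calr. Expression moved with transcript length between libraries of the same line. The rank correlation of length with the difference from the line's other libraries was 0.509, 0.413 and -0.62 in MC38-P replicates 1, 2 and 3. It was -0.552, -0.513 and 0.644 in those of MC38-LM3a, and -0.0126 to 0.016 in MC38-LM3b. Replicate 3 of MC38-P and of MC38-LM3a had the largest values, with the sign opposite to the line's others. These 2 are called the libraries that moved with length below, although the measure alone does not single them out. The labels name epithelial cells. Of 8 epithelial markers, 5 reached 1 TPM in at least 3 libraries, including Krt8, Krt18 and Krt19, whereas Cdh1, Vil1 and Cldn7 stayed under 1 TPM in every library. The summed level of the list was 2002 to 2317 TPM in parental cells against 1590 to 1810 and 1583 to 1628 in the derivatives. It was carried by Krt8 and Krt18, which lie on chromosome 15. Krt19 went the other way in MC38-LM3a, with 113.8 ± 8.4 TPM in parental cells and 149 ± 11.6 there (log2 difference 0.39, adjusted p = 0.00358). No hepatocyte marker reached 1 TPM. Of 5 plasma cell markers, a cell type rich in ER chaperones, Jchain, Mzb1, Tnfrsf17 and Irf4 stayed under 1 TPM, and the summed level of the list was 67.9 to 76.4 TPM in parental cells, 39.9 to 45.8 in MC38-LM3a and 44.9 to 47.0 in MC38-LM3b. Of 7 macrophage markers 4 were in the tables, while Adgre1, C1qa and C1qc were not. Csf1r and Lyz2 stayed under 1 TPM in every library. The sum, carried by Cd68 and Cd14, was 38.8 to 40.2 TPM in parental cells, 48.8 to 53.7 in MC38-LM3a and 55.6 to 60.0 in MC38-LM3b. Of 6 stellate cell and fibroblast markers, Col1a1, Col3a1 and Pdgfrb reached 1 TPM in at least 3 libraries, while Col1a2, Des and Dcn stayed under it, and the sum, carried by Col3a1, was 135 to 172 TPM in parental cells against 54.0 to 72.6 and 65.3 to 72.2 in the derivatives. Pdgfrb went the other way in MC38-LM3b, with 1.54 ± 0.34 TPM in parental cells and 3.66 ± 0.16 there (log2 difference 0.88, adjusted p = 6.95e-04). The part of these markers in the results below was not tested.

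The promoters of the ER chaperones are known for the ER stress response element, the site where ATF6 and XBP1 act together with NF-Y. Promoters from RefSeq (build GRCm38.p6, 250 bases before to 50 after the start) were at hand for 36 of the 40 members, all but Atf6, Hyou1, Manf and Slc7a5. The element was searched on both strands as CCAAT, 9 bases of any kind, then CCACG. It was present in 8 members, which were 7 of the 12 ER chaperones with a promoter and 1 of the 4 ERAD genes, against 37 genes (0.137%) over the whole table. The upstream region of Hspa5, the gene of the main ER chaperone BiP, shows the arrangement, with the element in capitals, beginning 65 bases before the start.
Hspa5 (chr2:34771840-34772089, plus strand): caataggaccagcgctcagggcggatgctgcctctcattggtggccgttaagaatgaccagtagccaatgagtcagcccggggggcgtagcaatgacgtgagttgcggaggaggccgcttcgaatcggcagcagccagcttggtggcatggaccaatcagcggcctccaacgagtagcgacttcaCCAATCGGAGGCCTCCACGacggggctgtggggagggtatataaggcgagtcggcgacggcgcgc
In the other matches the element begins 44 to 212 bases before the start, and Hsp90b1 has 2. These are shown with 8 bases on each side, on the strand of the gene, so that an element in the opposite orientation begins with CGTGG.
Hsp90b1 (chr10:86705630-86705664, minus strand): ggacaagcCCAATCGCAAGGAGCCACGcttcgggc
Hsp90b1 (chr10:86705525-86705559, minus strand): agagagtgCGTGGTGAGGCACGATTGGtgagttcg
Pdia6 (chr12:17266483-17266517, plus strand): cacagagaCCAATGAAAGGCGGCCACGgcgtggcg
Calr (chr8:84847067-84847101, minus strand): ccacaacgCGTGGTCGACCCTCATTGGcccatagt
Canx (chr11:50325792-50325826, minus strand): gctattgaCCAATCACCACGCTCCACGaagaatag
Dnajc3 (chr14:118937819-118937853, plus strand): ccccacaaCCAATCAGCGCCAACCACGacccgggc
Creld2 (chr15:88819512-88819546, plus strand): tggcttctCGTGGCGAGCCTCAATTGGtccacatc
Syvn1 (chr19:6046524-6046558, plus strand): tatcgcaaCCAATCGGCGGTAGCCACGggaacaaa
A second form of the element (ATTGG, 1 base of any kind, then CCACG) was found in 2 members, Herpud1 and Dnajb11, and in 12 genes (0.0444%) of the table.
Herpud1 (chr8:94386369-94386395, plus strand): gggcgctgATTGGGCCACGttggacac
Dnajb11 (chr16:22857844-22857870, plus strand): cggcggcgATTGGCCCACGcctggctg
None of the 11 Atf4-type targets with a promoter held either form. The unfolded protein response element TGACGTGG was in no member and in 0.714% of all genes. The C/EBP-ATF composite element, known as a binding site of ATF4 with C/EBP factors, was searched as TGATGNAAT and found in 1 member, the ISR factor Nupr1, and in 1.08% of all genes. With the last base left free (TGATGNAAN), a search added after seeing the data, it was in 6 members, which were 4 of the 11 Atf4-type targets with a promoter (Asns, Chac1, Trib3 and Vldlr), Nupr1 and Herpud1, and in 4.5% of all genes.
Nupr1 (chr7:126625565-126625589, minus strand): agggccagATTGCATCAgacagggc
Asns (chr6:7693216-7693240, minus strand): cagccacaTGATGAAACttcccgca
Chac1 (chr2:119351040-119351064, plus strand): tccctgccGTTGCATCActcctgcc
Trib3 (chr2:152344031-152344055, minus strand): agctcaggTTTACATCAgccgggcg
Vldlr (chr19:27216811-27216835, plus strand): cagcaataGTTGCATCAgcgctcct
Herpud1 (chr8:94386308-94386332, plus strand): cacggcggGTTGCATCAgcccgcac
A match describes these letters in this window only, and binding was not measured. Pdia3, Pdia4, Dnajb9 and Sdf2l1 held none of the 4 motifs, whereas Canx and Creld2, which were called in neither derivative with all libraries as deposited, held the ER stress response element.

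Relative to all transcripts, both derivatives had more mRNA of most ER chaperones and ERAD genes and less of Atf4, and more of the Atf4-type targets were called lower than higher. In MC38-LM3a, 14 of the 40 members were called higher against 14.1% of all genes tested, and 9 were called lower against 13.8%. In MC38-LM3b, 23 were called higher against 35.6% of all genes, and 6 were called lower against 11.2%. With each library centred on its median, 18 members were higher and 8 lower in MC38-LM3a, against 19.8% and 20.1% of all genes, while 22 were higher and 11 lower in MC38-LM3b, against 22.9% and 26.4%. The share of members called lower is thus close to that of all genes on this scale. With offsets for transcript length and GC content, 20 were higher and 10 lower in MC38-LM3a (26.5% and 24.6% of all genes) and 23 were higher and 9 lower in MC38-LM3b (29.3% and 28.3%). In MC38-LM3a, 1 member (Sdf2l1) was a DEG with a higher level, a class that held 1.39% of all genes. In MC38-LM3b there were 3 (Sdf2l1, Dnajb9 and Edem1), against 2.76% of all genes. Dnajb9 fell under the DEG threshold there when centred (0.995) and with length and GC offsets (0.966). No member was a DEG with a lower level, a class of 169 genes in MC38-LM3a and 133 in MC38-LM3b among the 11287 tested. Every derivative library lay above every parental one for 16 members in MC38-LM3a (20.3% of all genes) and for 26 in MC38-LM3b (51.3%). The calls divided by role. Of the 23 chaperones, ERAD genes, sensors and Xbp1, 14 were higher in MC38-LM3a, 20 were higher in MC38-LM3b, and none was lower in either with all libraries. Of the 17 ISR factors and Atf4-type targets, 9 were lower and none higher in MC38-LM3a, and in MC38-LM3b 6 were lower and 3 higher. In MC38-LM3a the count of members lower depended on single libraries, while 13 to 15 were higher when each replicate was left out in turn. The 9 members lower became 5 without MC38-P replicate 1, MC38-P replicate 2 or MC38-LM3a replicate 2. Without both libraries that moved with transcript length (MC38-P replicate 3 and MC38-LM3a replicate 3), 14 members were higher and 15 lower in MC38-LM3a, against 18.4% and 45.2% of all genes, and 26 were higher and 9 lower in MC38-LM3b, against 46.3% and 19%. The 15 then included Ern1 (-0.31, adjusted p = 0.0015), Atf6 (-0.33, adjusted p = 2.38e-04), Canx (-0.20, adjusted p = 0.00155) and Syvn1 (-0.17, adjusted p = 0.0251), so that 4 of the 23 were called lower in MC38-LM3a.

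**Figure D1:**
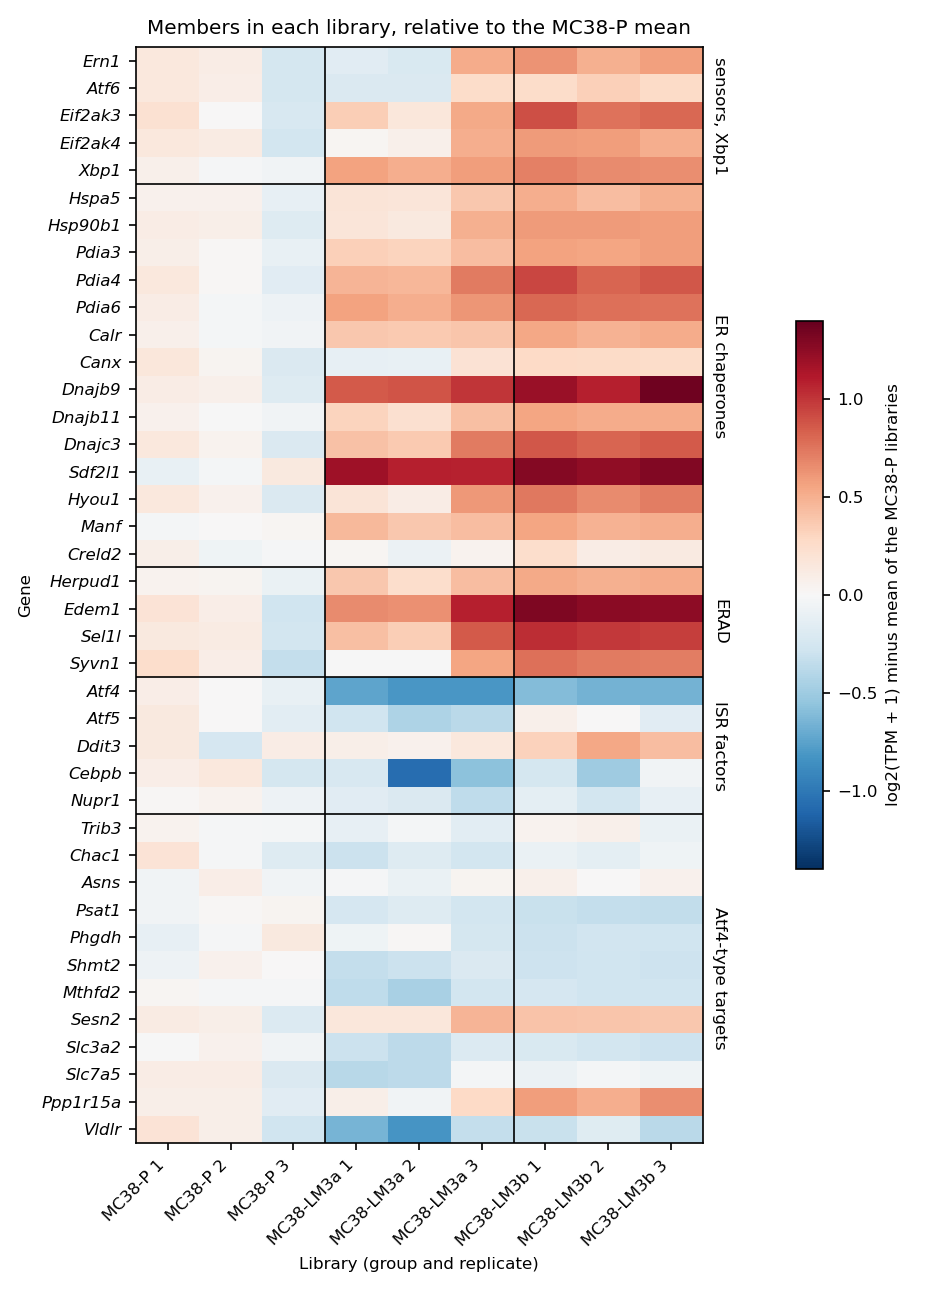
Heat map of the 40 members (rows, grouped by role) in the 9 libraries (columns), as log2(TPM + 1) minus the mean of the 3 MC38-P libraries, with red for higher and blue for lower. Most chaperone and ERAD rows are red in the derivatives, deepest for Sdf2l1, Dnajb9 and Edem1 and pale for Canx and Creld2, and the Atf4 row is blue in all 6 derivative libraries.

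**Figure D2:**
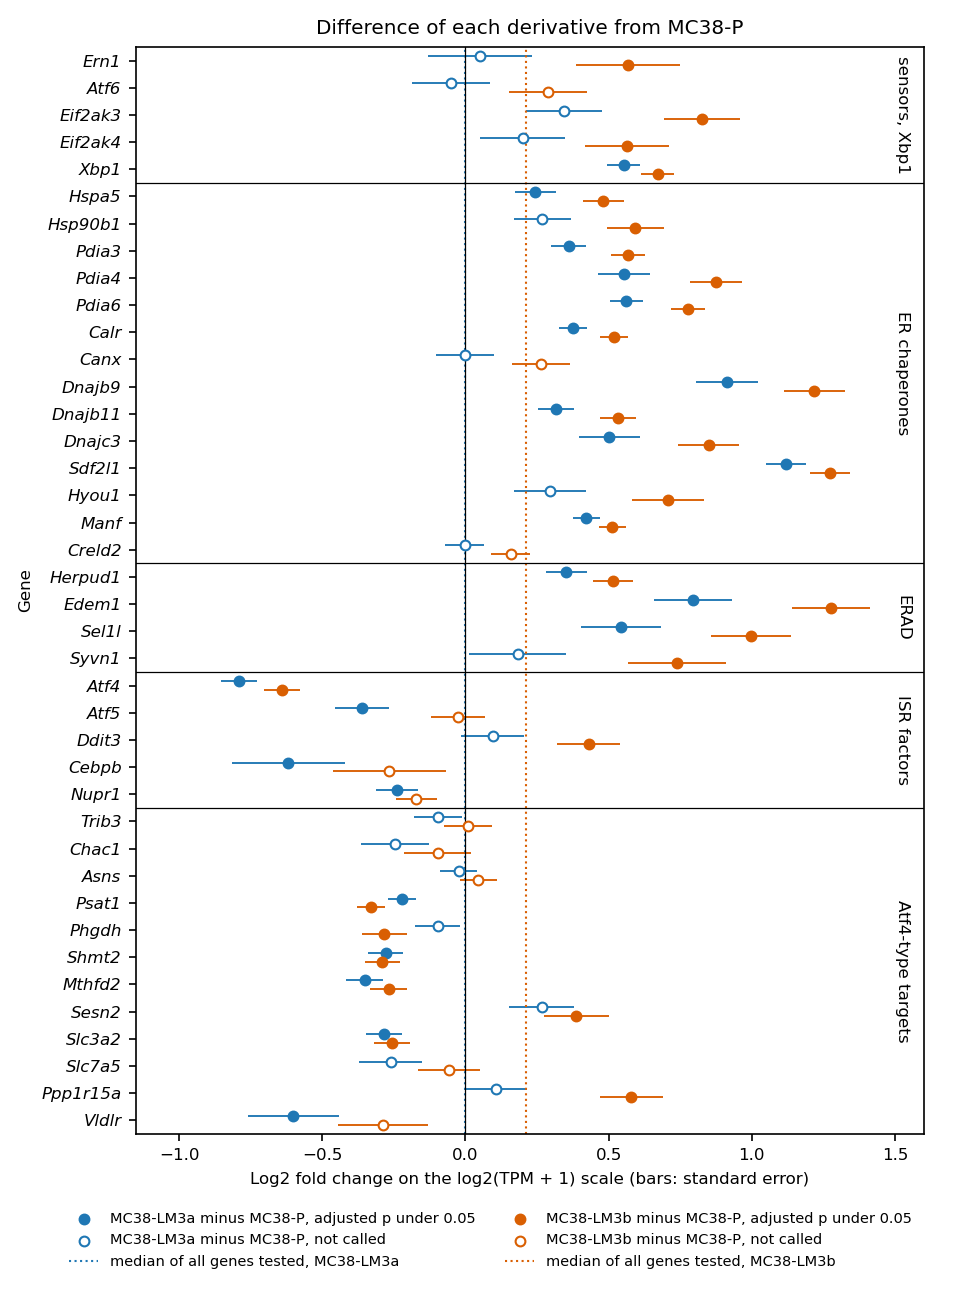
Log2 fold change of each member against MC38-P, with its standard error, for MC38-LM3a (blue) and MC38-LM3b (orange). Filled points passed an adjusted p of 0.05, and dotted lines mark the medians of all genes tested (-2e-04 and 0.21).

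Of the sensors and Xbp1, only Xbp1, the transcription factor of the IRE1 branch, was called in both derivatives as deposited. Its TPM was 111, 105 and 103 in MC38-P, 157, 152 and 160 in MC38-LM3a, and 173, 169 and 167 in MC38-LM3b. The groups did not overlap. Xbp1 rose by 0.55 ± 0.06 (SE, log2) in MC38-LM3a (adjusted p = 7.23e-05) and by 0.67 ± 0.06 in MC38-LM3b (adjusted p = 1.48e-05). Of the sensors themselves, none was called in MC38-LM3a and 3 of 4 were called higher in MC38-LM3b, where 35.6% of all genes were, against 14.1% in MC38-LM3a. Alternatives gave calls in both directions in MC38-LM3a. Eif2ak3 was called there with quantile normalization, centring and length and GC offsets (0.34 to 0.38, adjusted p = 0.00361 to 5.67e-04), and Eif2ak4 with quantile normalization (0.20, adjusted p = 0.0401) and offsets (0.24, adjusted p = 0.00361). Without both libraries that moved with length, Ern1 and Atf6 were called lower there, as given above, and Eif2ak4 was at -0.0824 (adjusted p = 0.258). Eif2ak3, the kinase PERK, had 11.7 ± 1.91 TPM (SD, n = 3) in parental cells, 15.1 ± 2.08 in MC38-LM3a and 21.3 ± 1.11 in MC38-LM3b, with a log2 difference of 0.83 for MC38-LM3b (adjusted p = 7.76e-04). Eif2ak4, the kinase GCN2, had 14.8 ± 2.38, 17.3 ± 3.48 and 22.2 ± 0.75 TPM, a log2 difference of 0.56 in MC38-LM3b (adjusted p = 0.0108). Ern1, the kinase and nuclease IRE1, had 19.5 ± 2.95, 20.7 ± 6.56 and 29.2 ± 1.32 TPM, with a log2 difference of 0.57 in MC38-LM3b (adjusted p = 0.0265). The Ern1 call was lost without MC38-P replicate 3 (log2 difference 0.44, adjusted p = 0.0874) and without any single MC38-LM3b library (0.54 to 0.60, adjusted p = 0.0567 to 0.0818). It was also lost with no filter on low values (adjusted p = 0.0526). With length and GC offsets Ern1 was called at 0.28 in MC38-LM3b (adjusted p = 0.00649). Atf6, the membrane-bound factor, had 44.3 ± 6.41, 43.0 ± 8.47 and 54.0 ± 1.61 TPM and was not called with all libraries. In MC38-LM3b, Atf6 was called higher with only the groups compared in the fit (0.29, adjusted p = 0.0352), without MC38-LM3a replicate 3 (0.29, adjusted p = 0.0211) and without both libraries (0.17, adjusted p = 0.00763). In MC38-LM3a, the third replicate stood above its other replicates for all 4 sensors, for instance at 28.3 TPM of Ern1 against 17.3 and 16.6.

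Most of the ER chaperones and folding enzymes were called higher. In MC38-LM3a, 10 of 14 were higher and none lower (median log2 fold change 0.37, over all genes -2e-04), and in MC38-LM3b 12 of 14 were higher and none lower (median 0.58, over all genes 0.21), where 14.1% and 35.6% of all genes were higher. Centred on the median of each library, both lines had 12 higher, with medians of 0.37 and 0.36 (19.8% and 22.9% of all genes were higher). With offsets for transcript length and GC content, both again had 12 higher, with medians of 0.34 and 0.38 (26.5% and 29.3% of all genes). Summed over the 14 genes, the level was 6936 ± 430 TPM in parental cells, 8754 ± 584 in MC38-LM3a and 10180 ± 162 in MC38-LM3b (SD, n = 3). This amounts to 0.694%, 0.875% and 1.02% of all TPM, or ratios to MC38-P of 1.26 and 1.47.

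Sdf2l1, an ER protein that works with the J protein ERdj3 in the BiP cycle, changed most. It had 78.1, 82.2 and 92.0 TPM in parental cells, 192, 180 and 179 in MC38-LM3a, and 205, 200 and 207 in MC38-LM3b. All derivative libraries lay well above all parental ones. The rise was 1.12 ± 0.07 (SE, log2; adjusted p = 1.97e-06) in MC38-LM3a and 1.27 ± 0.07 (adjusted p = 6.38e-07) in MC38-LM3b. Dnajb9 (ERdj4), a J protein that represses IRE1 through BiP, had 16.7, 16.4 and 13.6 TPM in parental cells, 28.9, 29.4 and 32.0 in MC38-LM3a, and 37.0, 34.0 and 41.6 in MC38-LM3b. Its groups did not overlap either. Dnajb9 rose by 0.91 ± 0.11 in MC38-LM3a (adjusted p = 1.58e-04) and by 1.22 ± 0.11 in MC38-LM3b (adjusted p = 1.78e-05). Hspa5 itself is among the highest members and moved less. It had 1125, 1121 and 991 TPM in parental cells, 1223, 1210 and 1401 in MC38-LM3a, and 1533, 1453 and 1527 in MC38-LM3b. The lowest library of each derivative was above the highest parental one. The log2 difference of Hspa5 was 0.24 ± 0.07 in MC38-LM3a (adjusted p = 0.028) against 0.48 ± 0.07 in MC38-LM3b (adjusted p = 4.94e-04). The derivatives were closer when centred (0.24 and 0.26) and with length and GC offsets (0.22 and 0.26). The Hspa5 call in MC38-LM3a was lost without MC38-P replicate 3 (log2 difference 0.18, adjusted p = 0.0749) and under 4 other alternatives, whose adjusted p ran up to 0.182.

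All 3 disulfide isomerases rose in both derivatives. Pdia6 had 486 ± 31.2 TPM in parental cells, 717 ± 29.3 in MC38-LM3a and 832 ± 14.4 in MC38-LM3b, with log2 differences of 0.56 and 0.78 (adjusted p = 7.54e-05 and 5.97e-06). Pdia4 had 220 ± 22.9, 324 ± 35.3 and 404 ± 17.5 TPM, with log2 differences of 0.55 and 0.87 (adjusted p = 0.0013 and 5.80e-05). Pdia3, which works on glycoproteins beside the lectin chaperones, had 677 ± 45.3, 868 ± 40.5 and 1002 ± 13.3 TPM, with log2 differences of 0.36 and 0.57 (adjusted p = 0.00145 and 6.55e-05). Calr, the soluble calreticulin, was called in both derivatives with log2 differences of 0.38 and 0.52, whereas Canx, its membrane-bound relative calnexin, had 682 ± 83.1, 681 ± 88.2 and 814 ± 6.35 TPM and was called in neither (log2 differences -0.0015 and 0.26, adjusted p = 0.993 and 0.0514). The 95% intervals of Calr (0.25 to 0.50 in MC38-LM3a) and Canx (-0.25 to 0.24) did not overlap in MC38-LM3a, but those of MC38-LM3b did (0.40 to 0.64 and 0.02 to 0.51), and the difference between the genes was not tested. With quantile normalization Canx was called higher in MC38-LM3b (0.34, adjusted p = 0.0233), with length and GC offsets it was at -8e-04 there, and without both libraries that moved with length it was called lower in MC38-LM3a (-0.20, adjusted p = 0.00155) and higher in MC38-LM3b (0.16, adjusted p = 0.00315).

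The J proteins Dnajc3 (p58IPK, an inhibitor of PERK) and Dnajb11 (ERdj3) were called in both derivatives, with log2 differences of 0.50 and 0.85 for Dnajc3 and 0.32 and 0.53 for Dnajb11. Manf, a small secreted protein of the ER, had 845 ± 16.4, 1132 ± 31.5 and 1206 ± 28.7 TPM and log2 differences of 0.42 and 0.51 (adjusted p = 1.24e-04 and 2.63e-05). Hsp90b1, the ER form of HSP90, and Hyou1, a nucleotide exchange factor for BiP, were called for MC38-LM3b, with log2 differences of 0.59 and 0.71, against 0.27 (adjusted p = 0.0684) and 0.30 (adjusted p = 0.108) in MC38-LM3a. With length and GC offsets both were also called in MC38-LM3a (log2 differences 0.22 and 0.34, adjusted p = 0.00573 and 1.36e-04). Creld2, a stress-inducible ER protein, had 149 ± 7.87, 149 ± 7.33 and 166 ± 8.98 TPM and was not called with all libraries. In MC38-LM3b, Creld2 was called higher without MC38-P replicate 1 (0.20, adjusted p = 0.0484) and without MC38-LM3a replicate 3 (0.16, adjusted p = 0.0463). The same held without both libraries that moved with length (0.15, adjusted p = 0.0464). Creld2 lies on chromosome 15, whose 458 tested genes had a median of -0.54 in MC38-LM3a and one of -0.32 in MC38-LM3b. Across the 14 chaperones, the level in MC38-P and the log2 fold change had a rank correlation of -0.41 for MC38-LM3a and of -0.53 for MC38-LM3b. The more abundant chaperones thus tended to have the smaller fold changes, a description of 14 genes from the same libraries.

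**Figure D3:**
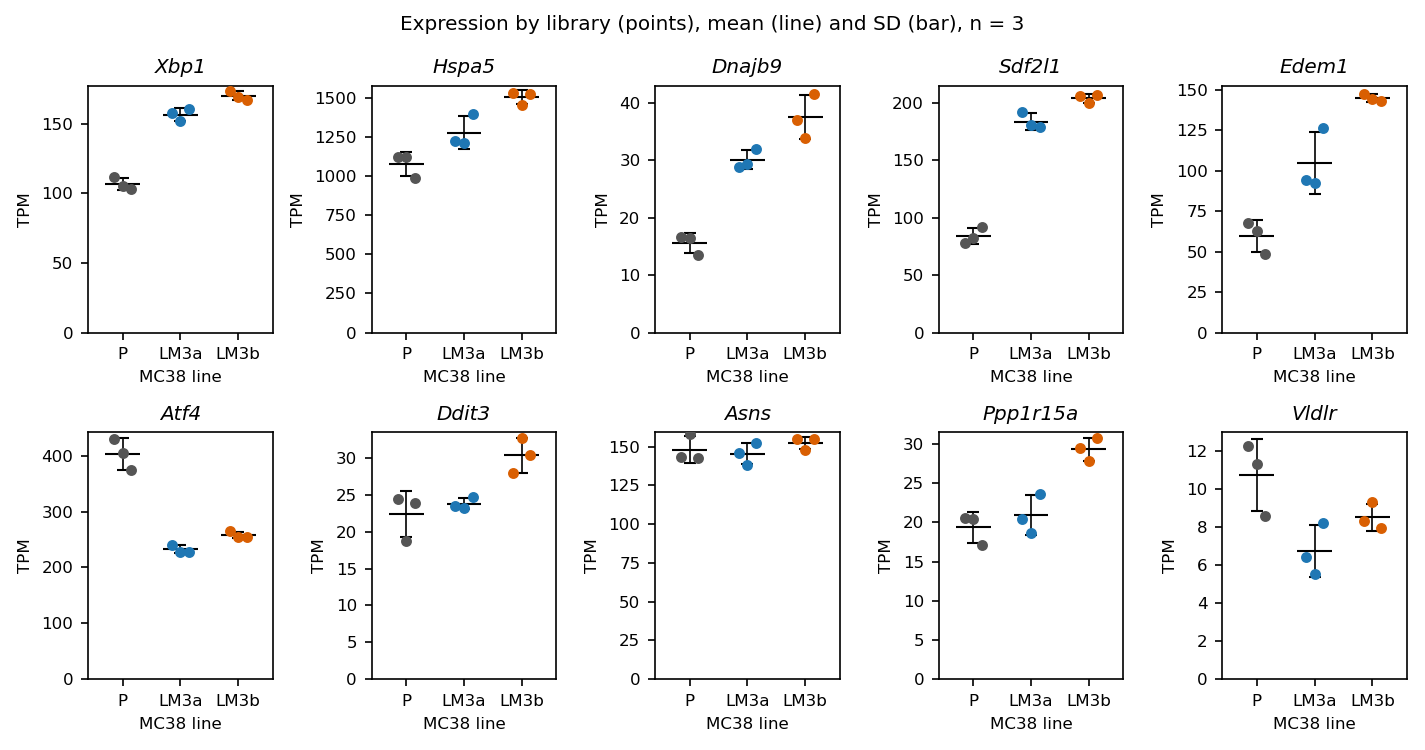
TPM of 10 members in each library (points) with the mean and SD of the 3 replicates of the parental line (P) and of each derivative. The derivatives lie above MC38-P for Sdf2l1, Dnajb9, Edem1, Xbp1 and Hspa5 and below it for Atf4, while Asns overlaps in all 3 lines.

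ERAD genes, which take misfolded proteins out of the ER for degradation, were called higher for 3 of 4 in MC38-LM3a and 4 of 4 in MC38-LM3b (medians 0.45 and 0.87), against 14.1% and 35.6% of all genes (medians -2e-04 and 0.21), and their summed TPM was 1.43 and 1.86 times that of MC38-P. Edem1, a mannosidase-like protein that directs misfolded glycoproteins to degradation, changed most. It had 67.6, 63.1 and 48.8 TPM in parental cells, 94.5, 92.6 and 127 in MC38-LM3a, and 148, 144 and 143 in MC38-LM3b. The 3 lines did not overlap, and MC38-LM3a replicate 3 was closest to MC38-LM3b. Edem1 rose by 0.79 ± 0.14 in MC38-LM3a (adjusted p = 0.00157) and by 1.28 ± 0.14 in MC38-LM3b (adjusted p = 6.27e-05). Sel1l, the adaptor of the ERAD ligase complex, had 49.95 ± 7.52, 73.6 ± 15.1 and 99.9 ± 2.29 TPM, with log2 differences of 0.54 and 1.00 (adjusted p = 0.0147 and 3.30e-04), just under the DEG threshold in MC38-LM3b. Its partner Syvn1, the ubiquitin ligase HRD1, had 28.9 ± 5.9, 33.1 ± 8.09 and 48.3 ± 0.96 TPM and was called for MC38-LM3b (log2 difference 0.74, adjusted p = 0.00565), whereas in MC38-LM3a it was called higher with length and GC offsets (0.24, adjusted p = 0.0317) and lower without both libraries that moved with length (-0.17, adjusted p = 0.0251). Herpud1, a membrane component of that complex, had 82.9 ± 4.79, 106 ± 7.12 and 119 ± 1.11 TPM, with log2 differences of 0.35 and 0.51 (adjusted p = 0.00383 and 2.88e-04).

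Of the ISR transcription factors, 4 of 5 were lower and none higher in MC38-LM3a (median -0.36), where 13.8% of all genes were lower. In MC38-LM3b 1 was lower and 1 higher (median -0.17, over all genes 0.21), with 11.2% of all genes lower and 35.6% higher. After centring 3 were lower and none higher there, with 26.4% of all genes lower and 22.9% higher. Atf4, the central factor of the ISR, had 431, 404 and 374 TPM in parental cells, 241, 228 and 229 in MC38-LM3a, and 264, 254 and 255 in MC38-LM3b. Every derivative library was far below every parental one, and MC38-LM3b lay slightly above MC38-LM3a. Atf4 fell by 0.79 ± 0.06 (SE, log2; adjusted p = 9.80e-06) in MC38-LM3a and by 0.64 ± 0.06 (adjusted p = 3.47e-05) in MC38-LM3b. In bulk RNA, less Atf4 mRNA per cell and fewer cells that express it cannot be told apart. Atf4 lies on chromosome 15, where the median of all tested genes was itself low, at -0.54 in MC38-LM3a and at -0.32 in MC38-LM3b. The medians of the other chromosomes ran from -0.02 to 0.10 in MC38-LM3a and from 0.18 to 0.30 in MC38-LM3b. Among the 458 genes of chromosome 15, Atf4 stood at percentile 16.6 in MC38-LM3a and at percentile 17.5 in MC38-LM3b. The part of the chromosome in the level of Atf4 was not tested.

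**Figure D4:**
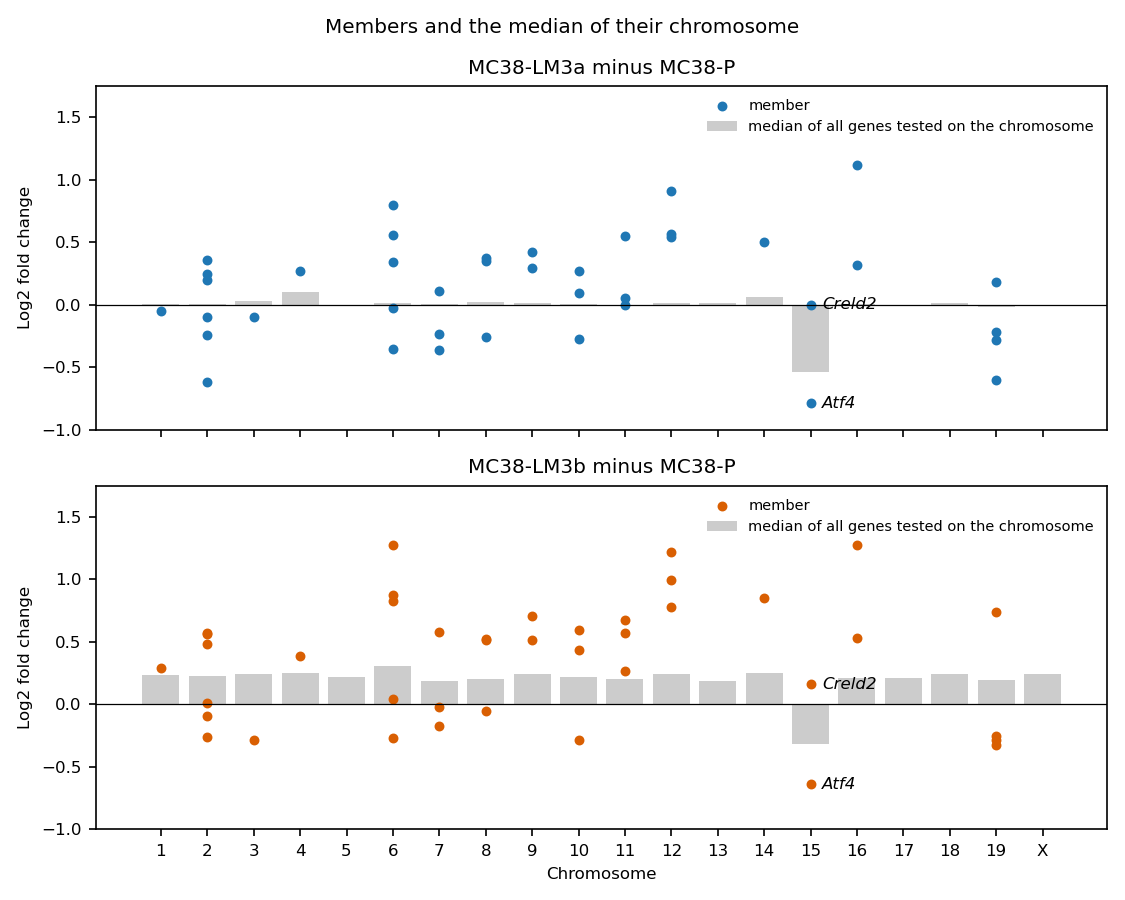
Log2 fold change of each member (points) over its chromosome, with bars for the median of all genes tested on that chromosome, for MC38-LM3a (top) and MC38-LM3b (bottom). Chromosome 15, which holds Atf4 and Creld2, has a median of -0.54 and -0.32, and Atf4 lies below both.

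Ddit3 (CHOP), the factor that ATF4 induces under lasting stress, had 24.5, 18.8 and 23.9 TPM in parental cells, 23.6, 23.2 and 24.7 in MC38-LM3a, and 28.1, 32.8 and 30.4 in MC38-LM3b. MC38-LM3a overlapped MC38-P, and MC38-LM3b lay above both. The log2 difference of Ddit3 was 0.09 ± 0.11 (adjusted p = 0.578) in MC38-LM3a and 0.43 ± 0.11 (adjusted p = 0.0095) in MC38-LM3b, where centring on the median or quantile normalization ended the call (0.21 and 0.20, adjusted p = 0.192 in both). Atf5, a relative of Atf4 that is also under translational control, had 47.0 ± 4.64 TPM in parental cells, 36.2 ± 2.00 in MC38-LM3a and 46.1 ± 3.73 in MC38-LM3b. Its log2 difference was -0.36 (adjusted p = 0.0159) in MC38-LM3a and -0.03 (adjusted p = 0.832) in MC38-LM3b, where centring gave a call (-0.25, adjusted p = 0.0382). The MC38-LM3a call of Atf5 was lost without MC38-P replicate 1 (-0.29, adjusted p = 0.0608), MC38-P replicate 2 (-0.36, adjusted p = 0.0571) or MC38-LM3a replicate 2 (-0.33, adjusted p = 0.0577). Cebpb, a partner of ATF4 on DNA, had 59.8 ± 8.63, 39.4 ± 11.5 and 49.6 ± 7.79 TPM and was called in MC38-LM3a (-0.62, adjusted p = 0.038) although its libraries overlapped those of MC38-P. Nupr1, a stress-induced chromatin protein, had 119 ± 5.06, 101 ± 6.89 and 105 ± 5.77 TPM and was called in MC38-LM3a (-0.24, adjusted p = 0.0324). The call of Cebpb was lost without MC38-P replicate 1, MC38-P replicate 2, MC38-LM3a replicate 2 or MC38-LM3b replicate 1 (-0.62 to -0.40, adjusted p = 0.059 to 0.133), and also with length and GC offsets (-0.41, adjusted p = 0.07), with no filter on low values (adjusted p = 0.0764) and with only the groups compared in the fit (adjusted p = 0.0704). That of Nupr1 was lost without MC38-P replicate 1 or 2, MC38-LM3a replicate 2 or 3, or MC38-LM3b replicate 1 or 3 (-0.26 to -0.18, adjusted p = 0.0502 to 0.12), and also with quantile normalization (-0.23, adjusted p = 0.0588), centring (-0.24, adjusted p = 0.111) and only the groups compared in the fit (adjusted p = 0.081). In MC38-LM3b, Nupr1 was called lower with quantile normalization (-0.28, adjusted p = 0.0201), centring (-0.39, adjusted p = 0.0141) and length and GC offsets (-0.32, adjusted p = 0.00434).

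Of the 12 Atf4-type targets, 5 were lower and none higher in MC38-LM3a (median -0.23), against 13.8% and 14.1% of all genes. In MC38-LM3b 5 were lower and 2 higher (median -0.18, over all genes 0.21), against 11.2% and 35.6% of all genes. Centred on the median, MC38-LM3b had 8 lower and 2 higher (median -0.40), where 26.4% of all genes were lower and 22.9% higher. With length and GC offsets, 7 were lower in each derivative, with 1 higher in MC38-LM3a and 2 in MC38-LM3b (medians -0.22 and -0.30). On that scale 24.6% and 28.3% of all genes were lower, and 26.5% and 29.3% were higher. Their summed TPM was 2259 ± 72.4 in parental cells, 2006 ± 37.3 in MC38-LM3a and 1919 ± 5.58 in MC38-LM3b, or 0.888 and 0.850 of the parental level.

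The targets called lower in at least one derivative were Psat1, Phgdh, Shmt2, Mthfd2, Slc3a2 and Vldlr. Psat1, the aminotransferase of serine synthesis, had 572 ± 17.2, 490 ± 14.1 and 455 ± 5.02 TPM, with log2 differences of -0.22 and -0.33 (adjusted p = 0.0071 and 5.16e-04), and centring ended its call in MC38-LM3a (-0.22, adjusted p = 0.132). Phgdh, the first enzyme of that path, had 838 ± 73.2, 783 ± 72.1 and 686 ± 8.39 TPM and was called in MC38-LM3b (-0.28, adjusted p = 0.0141) whereas MC38-LM3a missed the threshold (-0.10, adjusted p = 0.407). Without MC38-LM3b replicate 1 the Phgdh call was lost (-0.27, adjusted p = 0.0508). Shmt2, which passes the carbon of serine to folate in mitochondria, had 176 ± 8.03, 145 ± 7.13 and 143 ± 0.62 TPM, with log2 differences of -0.28 and -0.29 (adjusted p = 0.0062 and 0.0033). Mthfd2, the next enzyme of mitochondrial folate, had 117 ± 2.13, 91.4 ± 6.27 and 96.8 ± 1.66 TPM, with log2 differences of -0.35 and -0.27 (adjusted p = 0.0025 and 0.0073). Slc3a2, the heavy chain of amino acid exchangers, had 192 ± 6.84, 158 ± 9.51 and 161 ± 4.17 TPM, with log2 differences of -0.28 and -0.26 (adjusted p = 0.0064 and 0.0072). For Psat1, Shmt2, Mthfd2 and Slc3a2, every library of each derivative lay below every MC38-P library. Over all genes, 15.9% lay fully below in MC38-LM3a against 15.4% in MC38-LM3b, and of the 40 members 8 and 7 did.

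Vldlr, a lipoprotein receptor induced through PERK and ATF4, had the lowest log2 fold change of the targets in MC38-LM3a. It had 12.2, 11.3 and 8.58 TPM in parental cells, 6.39, 5.53 and 8.22 in MC38-LM3a, and 8.30, 9.29 and 7.92 in MC38-LM3b. MC38-LM3a lay below MC38-P and MC38-LM3b overlapped it. The log2 difference of Vldlr was -0.60 ± 0.16 (adjusted p = 0.0164) in MC38-LM3a and -0.29 ± 0.16 (adjusted p = 0.153) in MC38-LM3b. In MC38-LM3b, Vldlr was called lower when centred (-0.51, adjusted p = 0.00125), with quantile normalization (-0.56, adjusted p = 3.20e-04) and with length and GC offsets (-0.57, adjusted p = 7.68e-05). It was also called lower there without MC38-P replicate 3 (-0.43, adjusted p = 0.0485) and without both libraries that moved with length (-0.43, adjusted p = 0.0022). The MC38-LM3a call of Vldlr was lost without MC38-P replicate 1 or 2 or MC38-LM3a replicate 1 or 2 (-0.58 to -0.49, adjusted p = 0.0548 to 0.0679). With only the groups compared in the fit (adjusted p = 0.0514) or with the replicate number as a block (adjusted p = 0.055), it was lost as well.

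Other targets were not called. Asns, the asparagine synthetase, had 143, 158 and 143 TPM in parental cells, 146, 138 and 152 in MC38-LM3a, and 155, 148 and 155 in MC38-LM3b. Its 3 groups overlapped. The log2 difference of Asns was -0.02 in MC38-LM3a (95% interval -0.18 to 0.13) and was 0.04 in MC38-LM3b (-0.11 to 0.20). Trib3, a pseudokinase that feeds back on ATF4, had 23.8 ± 0.72, 22.2 ± 0.98 and 23.9 ± 1.497 TPM and was not called (95% intervals -0.30 to 0.11 and -0.20 to 0.22). Chac1, an enzyme that degrades glutathione, had 7.14 ± 1.06, 5.83 ± 0.31 and 6.56 ± 0.23 TPM, and Slc7a5, the light chain that pairs with Slc3a2, had 134 ± 15.99, 112 ± 16.6 and 128 ± 2.49 TPM. Neither was called in either derivative as deposited. Slc7a5 was called lower in both when centred (-0.26 and -0.28, adjusted p = 0.00392 and 0.00214) and with length and GC offsets (-0.21 and -0.25, adjusted p = 0.00443 and 0.00146). Chac1 was called lower in MC38-LM3b when centred (-0.32, adjusted p = 0.0185) or with quantile normalization (-0.37, adjusted p = 0.00995), and in MC38-LM3a with offsets (-0.24, adjusted p = 0.0478).

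Ppp1r15a and Sesn2 were called higher in MC38-LM3b. Ppp1r15a (GADD34), the phosphatase subunit that reverses eIF2alpha phosphorylation, had 20.5, 20.4 and 17.1 TPM in parental cells, 20.5, 18.6 and 23.7 in MC38-LM3a, and 29.4, 27.8 and 30.7 in MC38-LM3b. MC38-LM3b stood apart from both other lines. The log2 difference of Ppp1r15a was 0.11 ± 0.11 (adjusted p = 0.529) in MC38-LM3a and 0.58 ± 0.11 (adjusted p = 0.0020) in MC38-LM3b. Sesn2, an inhibitor of mTORC1 signalling, had 21.8 ± 2.601, 26.5 ± 3.54 and 28.7 ± 0.24 TPM, with log2 differences of 0.27 (adjusted p = 0.111) and 0.39 (adjusted p = 0.0186). In MC38-LM3a Sesn2 was called with quantile normalization (0.26, adjusted p = 0.00275), centring (0.27, adjusted p = 0.0022) and length and GC offsets (0.34, adjusted p = 1.12e-04). The Sesn2 call was lost without MC38-P replicate 3 (0.29, adjusted p = 0.0585) and without any single MC38-LM3b library (0.38 to 0.39, adjusted p = 0.0525 to 0.0593).

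**Figure D5:**
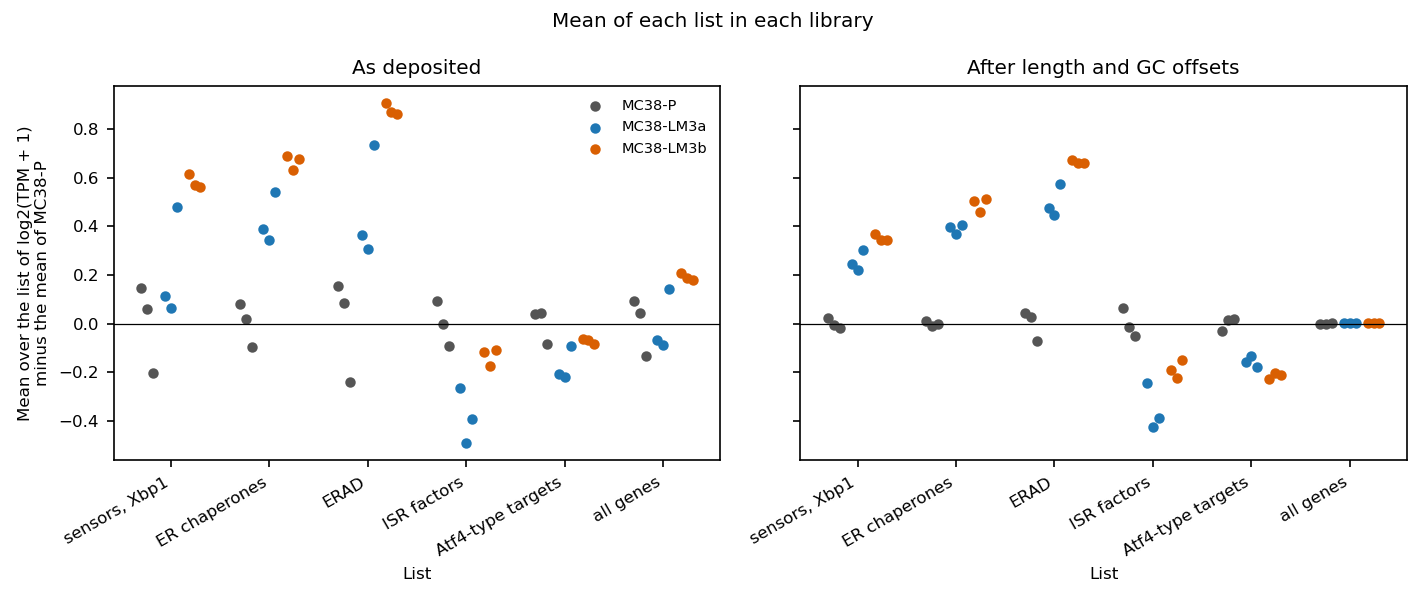
Mean over each role of log2(TPM + 1) minus the MC38-P mean (vertical axis), per library, as deposited (left) and after offsets for transcript length and GC content (right). After the offsets the 6 derivative libraries lie above the parental ones for sensors, chaperones and ERAD genes and below them for ISR factors and Atf4-type targets, while the mean of all genes stays at 0.

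In each library, the mean of log2(TPM + 1) over the 14 chaperones, relative to MC38-P, was -0.10 to 0.08 in the parental libraries, 0.34 to 0.54 in those of MC38-LM3a and 0.63 to 0.69 in those of MC38-LM3b. Over the 12 Atf4-type targets it was -0.08 to 0.04, -0.22 to -0.09 and -0.08 to -0.06. As deposited, the targets of MC38-LM3b thus overlapped MC38-P, and with the length and GC offsets they did not (-0.03 to 0.02 in MC38-P against -0.23 to -0.20). The chaperones lay apart from MC38-P on both scales. With the offsets their means were 0.37 to 0.41 in MC38-LM3a and 0.46 to 0.51 in MC38-LM3b.

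Other genes of the pathway, listed by role, were counted in the same way, beside 14.1% of all genes higher and 13.8% lower in MC38-LM3a and 35.6% higher and 11.2% lower in MC38-LM3b. Of 22 further genes of folding and translocation, 8 were higher and 1 lower in MC38-LM3a, and 16 higher and 1 lower in MC38-LM3b, or 9 higher and 1 lower there after centring (22.9% and 26.4% of all genes). Of 18 further genes of degradation and regulation, 9 were higher and 1 lower in MC38-LM3a, and 12 higher with none lower in MC38-LM3b, counting in both Derl3, which passed the filter on low values through the derivatives alone. Of 31 further Atf4-type targets that could be tested, 1 was higher and 12 lower in MC38-LM3a (median -0.19), and 1 higher and 6 lower in MC38-LM3b (median -0.09); after centring, MC38-LM3b had 22 lower, where 26.4% of all genes were lower against 11.2% as deposited. Of 13 genes that control the ISR, 1 was higher and 5 lower in MC38-LM3a, and 3 were higher and 5 lower in MC38-LM3b. After centring, 2 were higher and 8 lower in MC38-LM3b (22.9% and 26.4% of all genes). Fkbp11, Derl1, Slc38a2 and Tars of these lists lie on chromosome 15.

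Ero1b, an oxidase that serves the disulfide isomerases, had 7.63, 7.68 and 5.31 TPM in parental cells, 12.9, 11.7 and 14.99 in MC38-LM3a, and 19.1, 17.9 and 17.0 in MC38-LM3b, with log2 differences of 0.86 and 1.29 (adjusted p = 0.00133 and 8.1e-05). Derl3, a derlin of the ERAD machinery, was low throughout, with 0.44, 0.40 and 0.64 TPM in parental cells, 2.29, 1.76 and 3.28 in MC38-LM3a, and 2.25, 3.25 and 2.45 in MC38-LM3b. Its values are a description, since they decided that it was tested, and its log2 differences of 1.19 and 1.28 became 2.08 and 2.22 with a pseudocount of 0.1. Jdp2, a repressor of the AP-1 family, had 40.4, 35.7 and 40.6 TPM in parental cells, 82.0, 82.1 and 76.6 in MC38-LM3a and 78.6, 81.0 and 76.9 in MC38-LM3b (log2 differences 1.03 and 1.00). For Ero1b and Jdp2 every derivative library lay above every parental one, as did 20.3% of all genes in MC38-LM3a and 51.3% in MC38-LM3b. Aldh1l2, the mitochondrial folate enzyme next to Mthfd2 and Shmt2, fell from 9.36, 8.69 and 6.12 TPM to 2.85, 2.25 and 4.61 and to 3.27, 3.81 and 3.00 (log2 differences -1.12 and -1.04). Gdf15, a secreted stress cytokine, fell from 6.15, 6.94 and 4.98 TPM to 3.12, 3.06 and 3.13 and to 2.89, 1.85 and 2.71 (log2 differences -0.77 and -1.02). Both lay below MC38-P in every derivative library, as did 15.9% of all genes in MC38-LM3a and 15.4% in MC38-LM3b.

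Between the derivatives no member was called. Limma called 4 genes higher (0.0354% of those tested) and 2 lower (0.0177%) in MC38-LM3b than in MC38-LM3a. Of the members, 25 had an unadjusted p under 0.05, against 38.1% of all genes, and the lowest adjusted p was 0.119. The difference was positive for 37 of the 40, against 83.6% of all genes, with a median of 0.21, equal to that of all genes (0.21). Every MC38-LM3b library lay above every MC38-LM3a library for 26 members, against 38.4% of all genes, and below for 2 members, the serine enzymes Psat1 and Phgdh, against 3.6% of all genes. After centring, the median of the members was -0.01. The largest difference was that of Syvn1 (0.56, adjusted p = 0.119), and the lowest p was that of Ppp1r15a (0.47, adjusted p = 0.119). MC38-LM3a replicate 3 decided these counts. Without it, 25 members were higher and 1 lower in MC38-LM3b, among 5874 genes higher and 477 lower. Without both libraries that moved with length, 31 were higher and 2 lower, against 65% and 6.78% of all genes. The difference of MC38-LM3b from MC38-LM3a across all genes followed transcript length with a rank correlation of 0.61 when all libraries were kept.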

How the data were processed

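The parental line and both derivatives (3 libraries each) were sequenced by the authors after oligo(dT) enrichment. The deposited TPM, rounded to 2 decimals, were used. The submitters' processing notes name HISAT and the build GRCm39, and the quantifier and its treatment of shared reads are not given in the sources used here. The members and lists were chosen with earlier results of these data known.

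The test was limma 3.58.1 (R 4.3.3) on log2(TPM + 1), with a trended variance, all 9 libraries in 1 fit and Benjamini-Hochberg adjustment, for genes that reached 1 TPM in 3 or more libraries. A count test was not used because no counts were at hand. The script was tested on simulated data. Written in full were the members with the largest rise and fall of each role, all DEGs, and Hspa5, Xbp1, Ddit3, Atf4 and Asns. Of the other pathway genes, the DEGs were named. Alternatives changed the pseudocount (0.1), the filter, the groups fitted, the scaling and the libraries. Length and GC content came from the longest GENCODE M21 transcript and covered 98.3% of the genes tested. Markers listed for T cells and endothelial cells had summed levels of up to 0.18 and up to 1.9 TPM.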

Additional observations from a re-analysis of the deposited data

How the results depend on the processing

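Over the 19 alternatives of each result, 248 of the 266 values for counts and medians stayed within the margins set (1.5 times for a count, 1 SD between replicates for a median). For single genes, 1550 values kept direction and call, 62 gained a call, 49 lost one and 43 changed sign; for genes outside those written in full, this was added after seeing the data. Members lower in MC38-LM3a (9) numbered 5 to 10 when each replicate was left out in turn and 15 without both libraries that differ along length. Members higher in MC38-LM3b than MC38-LM3a (0) numbered 0 to 25 and 31, and members lower (0) numbered 0 to 1 and 2 (without both libraries, 65% of all genes were higher and 6.78% lower). Centring on the median gave 11 members and 8 Atf4-type targets lower in MC38-LM3b (6 and 5 as deposited). The MC38-LM3b chaperone median (0.58) was 0.36 centred and 0.38 with length and GC offsets, with or without the replicate block. That of the Atf4-type targets (-0.18) was -0.28 with quantile normalization, -0.40 centred, -0.30 with offsets (also with the block), and -0.20 to -0.099 with single replicates left out. The cause of these shifts was not tested.

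Changes of sign were as follows. In MC38-LM3a, without both length-differing libraries, Ern1 was -0.31 and Syvn1 -0.17, both called lower, as were Atf6 and Canx, which kept their sign. Under this setting Eif2ak4 was -0.0824, Phgdh 0.0439 and Ppp1r15a -0.0636. With offsets (with or without the block), Atf6 was 0.0178 and Ddit3 -0.0373. With quantile normalization, Canx was 0.0502 and Creld2 0.0088. Leaving out single replicates gave -0.18 to 0.18 for Ern1, -0.20 to 0.0271 for Atf6, -0.11 to 0.0757 for Canx, -0.0352 to 0.0383 for Creld2, -0.0049 to 0.30 for Syvn1, -0.0206 to 0.16 for Ddit3 and -0.0577 to 0.0241 for Asns. In MC38-LM3b, Canx was -8e-04 with offsets and Creld2 -0.0647 centred. Trib3 was -0.22 with quantile normalization, -0.21 centred, -0.0658 with offsets and -0.0077 without both libraries. Asns was -0.0555, -0.18 and -0.11 under the first 3 of these. Leaving out single replicates gave -0.0981 to 0.042 for Atf5 and -0.0235 to 0.0586 for Trib3.

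Same-numbered replicates of MC38-P and MC38-LM3a deviated in opposite directions (r = -0.662 to -0.165). For MC38-LM3b against the other lines, r was 0.0353 to 0.0748 for the same number and -0.0627 to 0.00728 for different numbers. Whether the numbers pair the samples cannot be decided from these values, since replicate 3 of MC38-P and of MC38-LM3a moved with length in opposite directions. With the replicate block, 12 members were higher and 6 lower in MC38-LM3a, and 21 and 6 in MC38-LM3b, against 9.75% and 9.74%, and 26% and 8.43%, of all genes. The calls lost with the block were those of Hspa5, Sel1l, Cebpb, Nupr1 and Vldlr in MC38-LM3a and of Ern1 and Sesn2 in MC38-LM3b. TPM keep no depth, so counting error at low levels such as Derl3 is unknown.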
